A study of Mus musculus with 12 samples.

Results

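Collagen chain genes, whose symbols read Col, a type number, the letter a and a chain number, made up 35 of the 18903 genes in the deposited count table. All 35 passed the filter on low counts and were tested among 17938 genes. Membership was set by symbol alone, across the 3 time points and both genotypes, but with earlier results of these data known. GENCODE vM21 annotates 44 such genes, and Col6a4, Col6a5, Col6a6, Col13a1, Col17a1, Col19a1, Col24a1, Col25a1 and Col26a1 were not analysed here.

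RNA was sequenced from primary astrocytes cultured from the brains of mice at postnatal day 1 (P1), 6 (P6) and 8 (P8), with 2 libraries labelled WT and 2 labelled cKO at each time point. The comparison asks how loss of Rack7 in the astrocyte lineage affects expression as the postnatal brain matures. Rack7 (gene symbol Zmynd8) encodes a chromatin reader that acts as a transcriptional repressor. In the study's methods the cKO mice were Rack7 fl/fl with hGFAP-Cre, the WT mice carried hGFAP-Cre with intact Rack7, and the floxed line was made in C57BL/6 zygotes. The human GFAP promoter drives Cre in radial glia and the cells that descend from them, so deletion in a dish depends on the lineage of each cell. The meninges were stripped off before dissociation, the cells grew to confluence on Matrigel, and microglia and oligodendrocytes were detached by shaking. The time point is therefore the age of the brain at dissection, and all 6 groups shared these steps. The labels call the 2 libraries of each group biological replicates without saying whether they came from separate animals or cultures, so that the p-values measure the spread between these libraries, which may be technical.

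Library totals ran from 54413504 to 89183250 counts, and Spearman's rank correlation across genes was 0.9876 to 0.9916 within the 6 pairs of replicates. Levels below are in CPM, the count of a gene scaled by the library total and by edgeR's TMM factor. Zmynd8 stood at 136 and 136 CPM in the P1 libraries labelled WT against 213 and 216 CPM in those labelled cKO, at 114 and 116 against 242 and 230 CPM at P6, and at 100 and 104 against 160 and 171 CPM at P8 (log2 fold changes 0.65, 1.04 and 0.70, each called by edgeR). Its count therefore went up, not down, under the cKO label at each age. The conditional allele removes only part of the coding exons, and a count over the whole gene does not isolate them, so the count cannot serve as a check of the deletion. The study also examined RACK7 protein in such cultures by immunoblot. By chromatin immunoprecipitation it reported far fewer RACK7 peaks in cKO than in WT primary astrocytes. Both measurements lie outside the count table. Every direction below is that of libraries labelled cKO against libraries labelled WT. The 9 astrocyte markers in the file summed to 661 to 2171 CPM, the 7 microglial markers to 1856 to 3666 CPM and the 8 mural markers to 2636 to 4631 CPM.

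Collagens are extracellular proteins in which 3 alpha chains wind into a triple helix. Each gene encodes 1 chain, and the chains assemble as homotrimers or as fixed heterotrimers into fibrils, basement membrane networks, beaded filaments or molecules that decorate fibrils. In the brain, fibrillar collagens are best known from the meninges and the perivascular space, where fibroblasts make them, and type IV collagens form the basement membranes of vessels and of the pial surface, which astrocyte endfeet contact. Cultured astrocytes also deposit matrix. Since these are bulk libraries, fewer cells of a type that makes a chain and less of its RNA per cell cannot be told apart.

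Summed over the 35 genes, collagen transcripts were more abundant in the libraries labelled cKO at P1, and less abundant at P6 and P8. Their sum was 3449 and 3415 CPM (labelled WT) against 7022 and 7141 CPM (labelled cKO) at P1. It was 17240 and 16960 against 10290 and 9943 CPM at P6. It was 39310 and 39140 against 14930 and 15260 CPM at P8. Of this P8 sum, Col1a1, Col1a2 and Col3a1 made up 24000 and 23800 against 7971 and 8216 CPM. The groups did not overlap at any time point, and the share of all counts that fell on these 35 genes ran from 0.364% in a P1 library labelled WT to 3.88% in a P8 library labelled WT. A gene was called when edgeR's quasi-likelihood test gave an adjusted p below 0.05 (Benjamini-Hochberg over all genes tested) with a fold change of at least 1.5.

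At P1, 13 of the 35 genes were called higher and 0 lower in the libraries labelled cKO, where 4.01% of all genes tested were called higher and 0.892% lower. Under other rules Col10a1 was lower at P1, at an unadjusted p under 0.05 (1 gene, against 2.48% of all genes) and with DESeq2 (1 gene, against 1.46% of all genes). At P6, 10 were called higher and 15 lower, against 7.16% and 6.38% of all genes. At P8, 5 were called higher and 19 lower, against 11.2% and 8.37% of all genes. In the order of age the median log2 fold changes of the 35 genes were 0.59, -0.63 and -0.73, beside 0.00, 0.00 and 0.01 over all genes tested. With a fold change of at least 2, 6 genes stayed higher at P6 (4.37% of all genes).

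**Figure D1:**
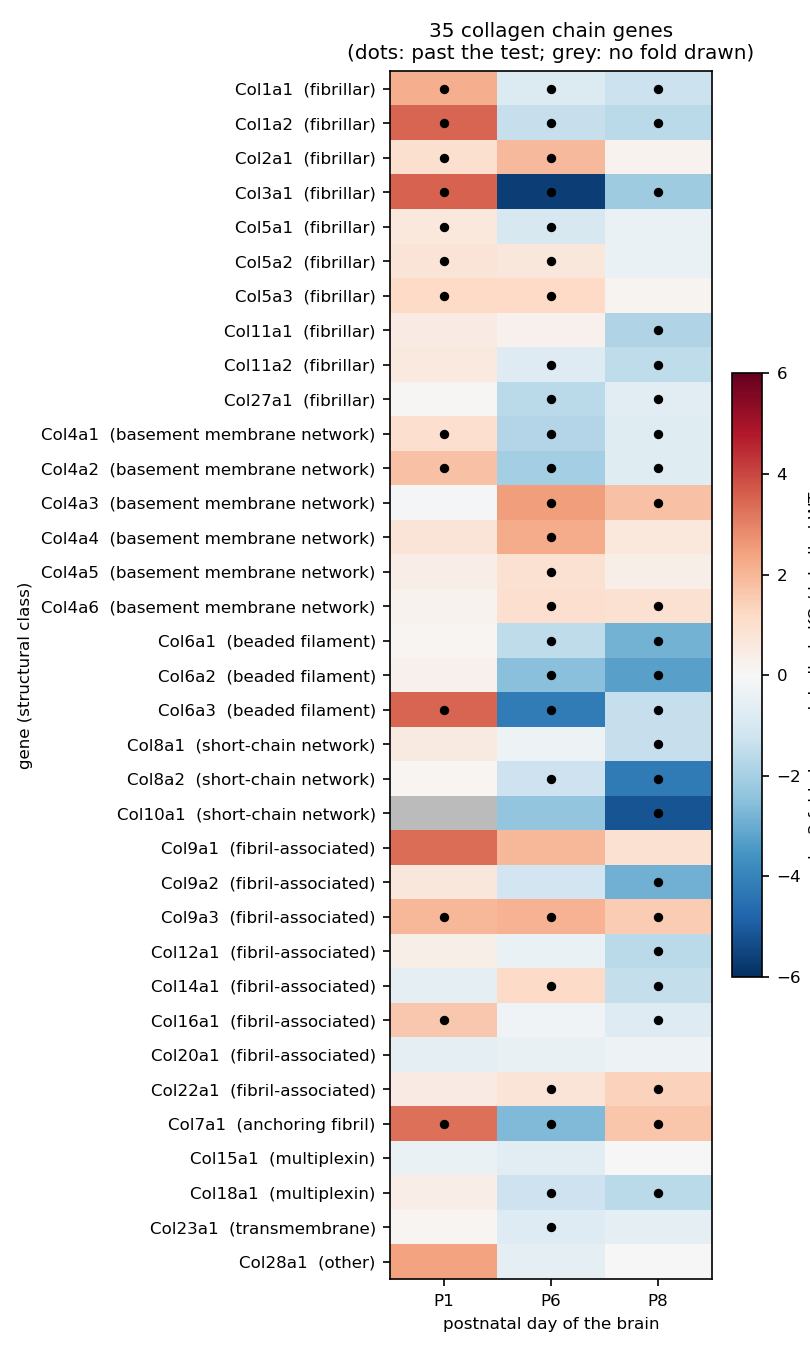
Log2 fold change (colour scale, libraries labelled cKO over libraries labelled WT) of each of the 35 collagen chain genes at P1, P6 and P8, grouped by structural class. Black dots mark calls (13 at P1, 25 at P6, 24 at P8); the P1 column is mostly red, the type I, III and VI rows turn blue at P6 and P8, Col4a3 to Col4a6 are red at P6, and grey marks Col10a1 at P1, for which no fold is drawn because the libraries labelled cKO held no read.

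Gene by gene, 8 of the 35 were higher at P1 and lower at P6 in the libraries labelled cKO, a sequence shown by 1.24% of all genes tested. These were Col1a1, Col1a2, Col3a1, Col4a1, Col4a2, Col5a1, Col6a3 and Col7a1. The opposite sequence was shown by 0 of the 35 and by 0.0613% of all genes. Another 4 genes (Col2a1, Col5a2, Col5a3 and Col9a3) were higher at both P1 and P6, against 1.58% of all genes. From P6 to P8 the direction was mostly kept: 12 of the 35 were lower at both (3.16% of all genes), 4 were higher at both (Col4a3, Col4a6, Col9a3 and Col22a1; 3.8% of all genes), Col14a1 passed from higher to lower (0.307% of all genes) and Col7a1 from lower to higher (0.675%). Col9a3 was the single collagen gene called higher at all 3 time points, a pattern that was not counted over all genes. As 0 of the 35 were called lower at P1, none could be called lower at all 3. Col9a1, Col15a1, Col20a1 and Col28a1 were called at no time point.

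Col3a1 lies at chr1:45311538-45349706, Col6a3 at chr1:90765923-90843971 and Col7a1 at chr9:108953586-108984875 (GENCODE vM21). The 250 bases upstream of these 3 genes, which had the largest falls at P6, are printed to show the DNA at which they start (GRCm38.p6, RefSeq). In these lines capitals mark every match, on either strand, to TATAAA, to CCAAT or to GGGCGG, the letters of the TATA box, of the CCAAT box and of the GC box bound by Sp1-type factors. They lie at chr1:45311288-45311537 (plus strand, ending at the base before Col3a1), chr1:90843972-90844221 (minus strand, ending at the base before Col6a3) and chr9:108953336-108953585 (plus strand, ending at the base before Col7a1).
Col3a1: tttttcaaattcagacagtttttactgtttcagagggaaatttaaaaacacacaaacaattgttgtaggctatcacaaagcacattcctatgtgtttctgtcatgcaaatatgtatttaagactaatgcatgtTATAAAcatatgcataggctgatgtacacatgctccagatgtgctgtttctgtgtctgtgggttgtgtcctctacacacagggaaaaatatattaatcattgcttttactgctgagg
Col6a3: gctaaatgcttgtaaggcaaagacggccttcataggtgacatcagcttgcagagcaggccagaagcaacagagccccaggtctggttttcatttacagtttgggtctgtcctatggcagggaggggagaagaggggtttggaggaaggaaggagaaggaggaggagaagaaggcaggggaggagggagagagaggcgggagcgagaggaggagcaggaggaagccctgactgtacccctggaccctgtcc
Col7a1: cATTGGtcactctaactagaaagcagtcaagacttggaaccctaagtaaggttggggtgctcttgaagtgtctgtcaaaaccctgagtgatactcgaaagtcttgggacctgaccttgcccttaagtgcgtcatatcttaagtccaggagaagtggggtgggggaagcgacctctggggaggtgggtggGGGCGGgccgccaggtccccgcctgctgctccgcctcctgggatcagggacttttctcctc
The Col3a1 stretch holds 1 TATAAA, the Col7a1 stretch 1 CCAAT and 1 GGGCGG, and the Col6a3 stretch none of the 3 strings. Windows of 300 bases around the starts were on hand for 27 of the 35 genes (30 windows). TATAAA was in 10.0% of them and in 13.6% of the 32851 windows of all genes, CCAAT in 33.3% and 37.4%, and GGGCGG in 63.3% and 35.7%. The median GC content was 60.0% in the collagen windows and 52.7% in all windows, and Col3a1 had 37.7%. These strings are letters only, and no factor was measured here.

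Among the 10 fibrillar chains, 7 were called higher at P1 and 0 lower, 3 higher and 6 lower at P6, and 0 higher and 6 lower at P8. The shares of all genes tested were 4.01%, 7.16% and 11.2% higher and 0.892%, 6.38% and 8.37% lower, in the order of age. With 10 genes, 0 lower at P1 and 0 higher at P8 are near these shares. Per kilobase of exon, Col1a1 and Col1a2 had the highest levels of all collagen genes over the 12 libraries (489 and 220 CPM per kilobase), followed by Col4a1 (176), Col3a1 (131), Col8a1 (126) and Col4a2 (123). With the longest coding transcript as the length, a choice made after the data were seen, Col1a2 came to 511 and Col3a1 to 231, which put Col3a1 ahead of Col4a1.

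Col1a1, which encodes the chain present in 2 copies in each type I collagen molecule, stood at 233 and 249 CPM in the P1 libraries labelled WT and at 1087 and 1065 CPM in those labelled cKO. It stood at 2727 and 2719 against 1609 and 1479 CPM at P6. It stood at 9912 and 9529 against 3929 and 3990 CPM at P8. The groups were apart each time, with the libraries labelled cKO on top at P1 and below at P6 and P8. The log2 fold changes were 2.16 (SE 0.0459, adjusted p = 1.21e-08 by edgeR), -0.82 (SE 0.0442, adjusted p = 1.53e-06) and -1.30 (SE 0.0446, adjusted p = 5.72e-08).

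Col1a2, its partner in type I collagen, stood at 74.8 and 74.3 CPM against 848 and 844 CPM at P1, at 2324 and 2384 against 930 and 878 CPM at P6, and at 9168 and 9307 against 2924 and 3055 CPM at P8 (labelled WT first). It moved as Col1a1 did, but by more at P1, with log2 fold changes of 3.51 (SE 0.037), -1.38 (SE 0.0341) and -1.63 (SE 0.0343) and edgeR adjusted p of 1.57e-10, 1.21e-08 and 3.87e-09. The ratio of Col1a1 to Col1a2 in CPM was 3.23 ± 0.163 (SD, n = 2) in the P1 libraries labelled WT and lay between 1.05 and 1.71 in the means of the other 5 groups. Both chains were thus furthest from each other where both were lowest.

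Col3a1, the homotrimeric type III collagen of pliable connective tissue, had the largest called log2 fold changes of the 35 genes at P1 and at P6, though not at P8. It stood at 33.8 and 30.8 CPM against 369 and 370 CPM at P1, at 1212 and 1206 against 22.8 and 25.9 CPM at P6, and at 4915 and 4966 against 1118 and 1170 CPM at P8 (labelled WT first). The libraries labelled cKO were thus above at P1, far below at P6 and below at P8. Their own course ran down from P1 to P6 and then up, while that of the libraries labelled WT ran up throughout. The log2 fold changes were 3.52 (SE 0.0642), -5.63 (SE 0.0708) and -2.11 (SE 0.06), with edgeR adjusted p of 1.06e-08, 7.47e-10 and 1.83e-08.

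**Figure D2:**
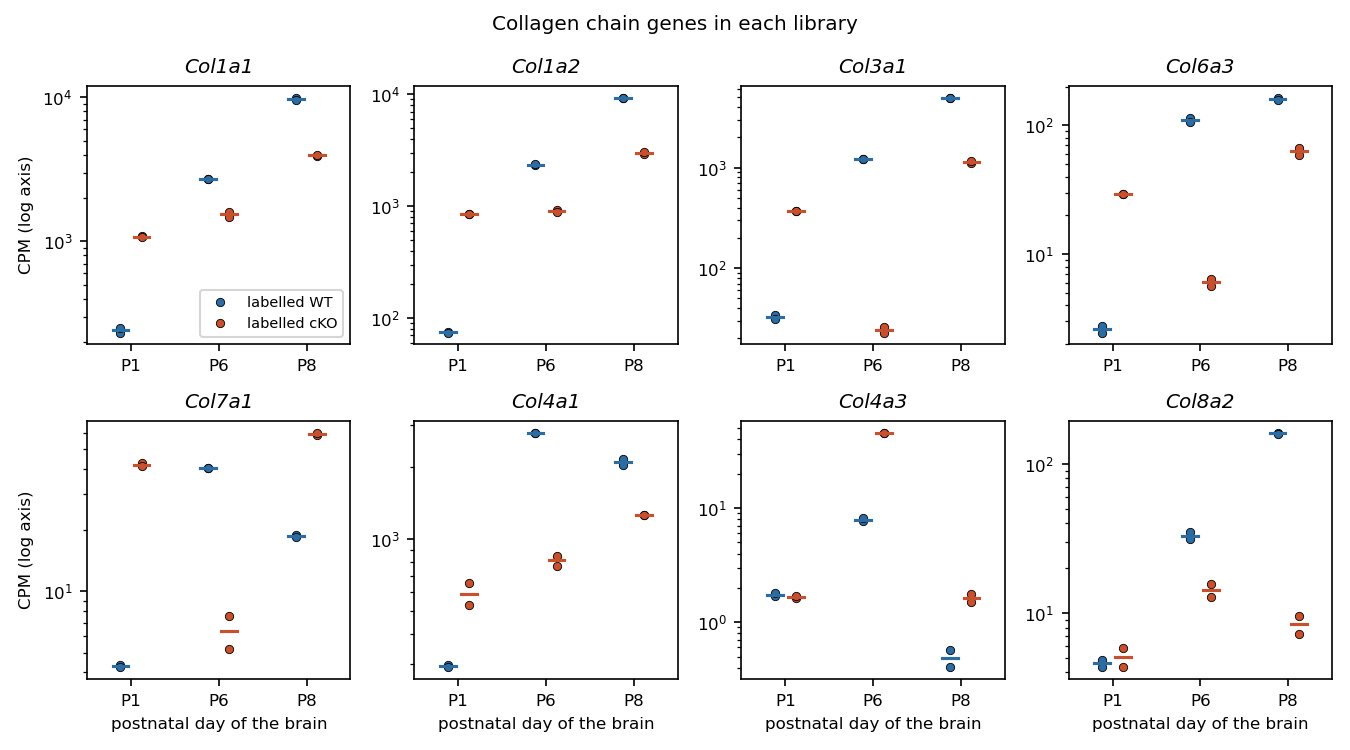
CPM on a log axis of 8 collagen chain genes in each of the 12 libraries by time point (blue, labelled WT; red, labelled cKO; bars, means of 2 libraries). Col1a1, Col1a2, Col3a1, Col6a3 and Col4a1 are higher in the libraries labelled cKO at P1 and lower at P6 and P8, Col3a1 drops to 22.8 and 25.9 CPM at P6, Col7a1 crosses again at P8, Col4a3 peaks at P6 in the libraries labelled cKO, and Col8a2 separates at P6 and P8.

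Type V collagen, which co-assembles with type I and limits fibril diameter, did not follow as a unit. Col5a1 was called higher at P1 (log2 fold change 0.61) and lower at P6 (-0.96), and its P8 value of -0.40 was short of the fold required. Col5a2 was higher at P1 (0.76) and at P6 (0.66), with 550 and 545 against 937 and 918 CPM at P1, 1178 and 1195 against 1912 and 1830 CPM at P6, and 1296 and 1270 against 964 and 983 CPM at P8. Col5a3 was higher at P1 (1.20) and at P6 (1.19), and its P8 value was 0.15 (adjusted p = 0.369 by edgeR). At P6 Col5a1 and Col5a2 thus went opposite ways, and the ratio of Col5a1 to Col5a2 was 0.581 ± 0.0286 (SD, n = 2) in the libraries labelled WT and 0.190 ± 0.00273 in those labelled cKO.

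Col2a1, the chain of cartilage fibrils, stood at 6.42 and 6.55 CPM against 13.2 and 11.7 CPM at P1, at 155 and 137 against 585 and 546 CPM at P6, and at 46.5 and 42.0 against 52.7 and 49.3 CPM at P8. It peaked at P6 in libraries of both labels, higher in those labelled cKO, with log2 fold changes of 0.94 (SE 0.0881, adjusted p = 0.000181 by edgeR) at P1 and 1.95 (SE 0.0842, adjusted p = 3.91e-07) at P6. At P8 the value was 0.20 (edgeR adjusted p = 0.0887).

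Col11a1 and Col11a2, chains of type XI collagen that nucleate cartilage fibrils with type II, were lower in the libraries labelled cKO at P8, by log2 fold changes of -1.81 and -1.52. Col11a1 stood at 499 and 519 against 139 and 151 CPM there, with no overlap. The P6 call of Col11a2 (-0.76, edgeR adjusted p = 0.021) was lost without P6 WT replicate 2 (adjusted p = 0.137), without P6 cKO replicate 1 (0.0691) and without P6 cKO replicate 2 (0.0957). Col27a1, a fibrillar chain of cartilage matrix, was lower at P6 (-1.61) and at P8 (-0.61), between 3.43 and 21.5 CPM over all libraries.

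The 6 chains of type IV collagen, the network of basement membranes, lie as 3 pairs whose genes point away from each other. Col4a1 and Col4a2 on chromosome 8 overlap by their first 22 bases, Col4a3 and Col4a4 on chromosome 1 start 71 bases apart, and Col4a5 and Col4a6 on chromosome X start 1308 bases apart. Their chains form 3 molecules: alpha 1 with alpha 2, alpha 3 with alpha 4 and alpha 5, and alpha 5 with alpha 6. At P6 the first pair was lower and the other 4 genes were higher in the libraries labelled cKO, so that the class counted 4 higher and 2 lower. At P1 it counted 2 higher and 0 lower, and at P8 2 higher and 2 lower. In the order of age, 4.01%, 7.16% and 11.2% of all genes tested were higher and 0.892%, 6.38% and 8.37% lower. With 6 genes, 0 lower at P1 is near that share.

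The short stretches between the paired starts are shown for the pairs on chromosomes 1 and X, since each pair shares this DNA (GRCm38.p6, RefSeq, capitals as above). The gap between Col4a4 and Col4a3 is chr1:82586850-82586920, written on the Col4a4 strand, with 0 of the 3 strings. The stretch upstream of Col4a6 is chrX:141474077-141474326 (minus strand, with 1 GGGCGG on its opposite strand) and that upstream of Col4a5 is chrX:141475169-141475384 (plus strand, with 1 CCAAT). All 3 contain no annotated exon.
Col4a4 to Col4a3: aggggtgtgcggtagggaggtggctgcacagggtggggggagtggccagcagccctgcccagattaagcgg
Col4a6: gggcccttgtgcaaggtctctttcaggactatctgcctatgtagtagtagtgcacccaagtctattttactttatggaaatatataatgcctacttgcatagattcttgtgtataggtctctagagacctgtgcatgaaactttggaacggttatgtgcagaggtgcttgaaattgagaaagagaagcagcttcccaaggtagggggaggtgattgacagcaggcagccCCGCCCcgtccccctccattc
Col4a5: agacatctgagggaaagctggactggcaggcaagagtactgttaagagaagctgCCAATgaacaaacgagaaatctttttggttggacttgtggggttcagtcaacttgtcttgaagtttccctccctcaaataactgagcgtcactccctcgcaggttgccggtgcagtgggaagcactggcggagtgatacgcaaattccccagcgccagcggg

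Col4a1 stood at 297 and 291 CPM against 530 and 654 CPM at P1, at 2797 and 2785 against 855 and 776 CPM at P6, and at 2162 and 2037 against 1270 and 1266 CPM at P8 (labelled WT first). Col4a2 stood at 113 and 116 against 382 and 384 CPM, at 1801 and 1702 against 441 and 421 CPM, and at 1388 and 1372 against 821 and 827 CPM. Both ubiquitous chains were higher at P1 and lower at P6 and P8 in the libraries labelled cKO, with no overlap between the groups. The log2 fold changes were 1.01, -1.77 and -0.73 for Col4a1 (SE 0.0848 to 0.0869) and 1.74, -2.02 and -0.74 for Col4a2 (SE 0.0361 to 0.0373), all called by edgeR. The ratio of Col4a1 to Col4a2 was 2.57 ± 0.0763 (SD, n = 2) in the P1 libraries labelled WT, while the means of the other groups lay between 1.52 and 1.89.

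Col4a3, a chain of the kidney glomerular and other specialised basement membranes, stood at 1.69 and 1.79 CPM against 1.63 and 1.69 CPM at P1, at 7.68 and 8.19 against 46.0 and 45.7 CPM at P6, and at 0.572 and 0.402 against 1.77 and 1.51 CPM at P8. Its neighbour Col4a4 stood at 1.53 and 3.02 against 3.43 and 4.32 CPM at P1, at 6.41 and 6.03 against 28.0 and 29.3 CPM at P6, and at 1.01 and 1.5 against 1.34 and 2.52 CPM at P8. Both genes peaked at P6 under both labels, far higher in the libraries labelled cKO, and the P8 groups overlapped for Col4a4. At P6 the log2 fold change was 2.53 (SE 0.138, adjusted p = 1.57e-06 by edgeR) for Col4a3 and 2.21 (SE 0.351, adjusted p = 0.00149) for Col4a4. At P8 it was 1.76 (SE 0.166, edgeR adjusted p = 3.49e-05) for Col4a3 and 0.62 (SE 0.373, adjusted p = 0.245) for Col4a4, and at P1 neither was called.

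Col4a5, which completes the molecule with Col4a3 and Col4a4, stood at 284 and 285 CPM against 378 and 378 CPM at P1, at 360 and 345 against 648 and 670 CPM at P6, and at 169 and 170 against 222 and 215 CPM at P8. The groups were apart each time, but only the P6 difference reached the fold required, with log2 fold changes of 0.41, 0.90 and 0.37 (SE 0.0358 to 0.036). Col4a6 was at 213 and 207 against 235 and 247 CPM at P1, at 146 and 144 against 280 and 294 CPM at P6, and at 41.2 and 40.2 against 76.0 and 75.7 CPM at P8. It was called higher at P6 (log2 fold change 0.99) and P8 (0.90). At P6 the partners of each pair had the same sign and similar log2 fold changes: -1.77 and -2.02 in the first pair, 2.53 and 2.21 in the second, and 0.90 and 0.99 in the last.

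**Figure D3:**
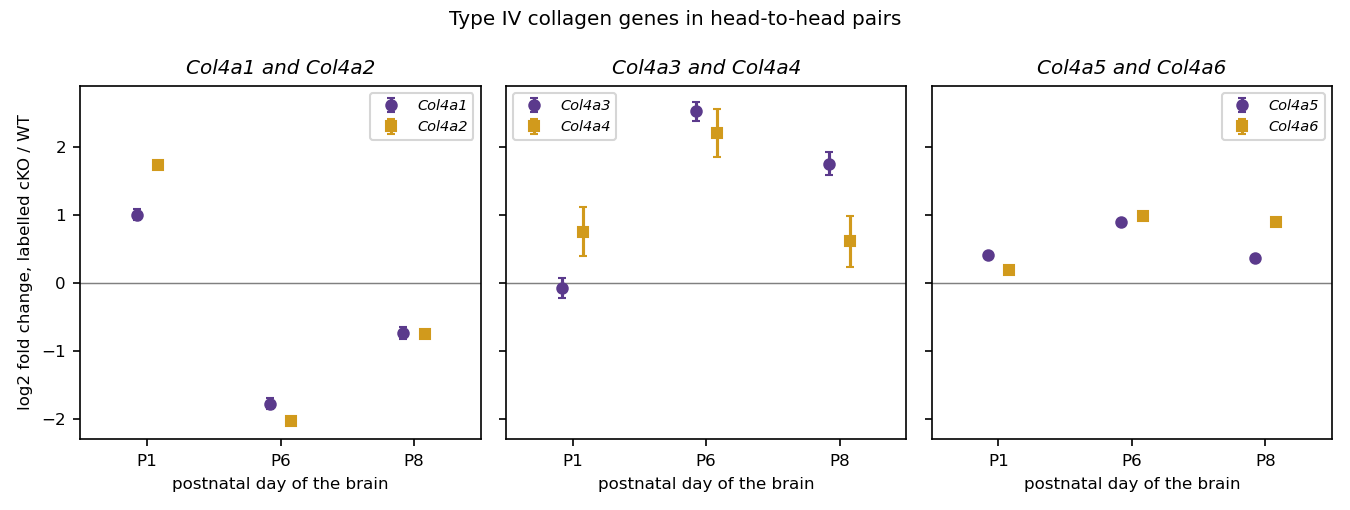
Log2 fold change (libraries labelled cKO over libraries labelled WT) of the 6 type IV collagen genes at each time point, 1 panel for each head-to-head pair, with bars of 1 standard error. Col4a1 and Col4a2 cross from above 0 at P1 to -1.77 and -2.02 at P6, while Col4a3 and Col4a4 rise to 2.53 and 2.21 and Col4a5 and Col4a6 to 0.90 and 0.99.

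The 3 type VI chains, which assemble into the beaded microfilaments around cells, were all called lower at P6 and at P8 (6.38% and 8.37% of all genes tested). Col6a3 alone was called higher at P1 (4.01% of all genes). Col6a1 and Col6a2 lie on chromosome 10 on the same strand, 85161 bases apart, and Col6a3 is on chromosome 1. Col6a3 stood at 2.77 and 2.46 CPM against 29.0 and 29.4 CPM at P1, at 114 and 106 against 6.44 and 5.62 CPM at P6, and at 164 and 159 against 59.2 and 66.2 CPM at P8. Its log2 fold changes of 3.49 (SE 0.0996), -4.19 (SE 0.0995) and -1.36 (SE 0.0874) had the signs of those of Col3a1 at each time point, with edgeR adjusted p of 6.82e-08, 1.02e-08 and 2.92e-06.

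Col6a1 stood at 178 and 175 CPM against 195 and 192 CPM at P1, at 381 and 352 against 129 and 127 CPM at P6, and at 1404 and 1471 against 201 and 204 CPM at P8. Col6a2 stood at 62.2 and 66.3 against 77.8 and 75.3 CPM, at 194 and 190 against 35.9 and 32.6 CPM, and at 995 and 1020 against 102 and 105 CPM. For both, the P8 gap was wider than the P6 gap. The log2 fold changes were 0.14, -1.52 and -2.83 for Col6a1 (SE 0.0429 to 0.0458) and 0.25, -2.49 and -3.28 for Col6a2 (SE 0.0535 to 0.0579), with edgeR adjusted p of 1.45e-09 and 1.94e-09 at P8. At P1 neither reached the fold required, so the P1 rise among these chains was that of Col6a3.

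The 3 network-forming short-chain collagens in the file were each called lower at P8 (8.37% of all genes tested). Of these, Col10a1 was near the floor of detection, with 71 counts (labelled WT) against 2 (labelled cKO) at P8. Col8a1, a chain of the hexagonal lattice beneath corneal and vascular endothelium, was among the most abundant collagen transcripts, at 382 and 370 CPM against 532 and 546 CPM at P1, 1314 and 1328 against 1051 and 1068 CPM at P6, and 1864 and 1915 against 712 and 716 CPM at P8. Only its P8 log2 fold change of -1.40 (SE 0.03) reached the fold required. Col8a2, the other chain of that lattice, stood at 4.88 and 4.33 against 4.33 and 5.79 CPM at P1, at 34.9 and 31.4 against 15.6 and 12.7 CPM at P6, and at 162 and 160 against 9.62 and 7.24 CPM at P8. The groups overlapped at P1 and were apart after it, with log2 fold changes of -1.22 (SE 0.17, adjusted p = 0.00067 by edgeR) at P6 and -4.26 (SE 0.19, adjusted p = 2.7e-07) at P8. The ratio of Col8a1 to Col8a2 was 11.7 ± 0.371 (SD, n = 2) in the P8 libraries labelled WT and 86.4 ± 17.6 in those labelled cKO.

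Col10a1, the marker of hypertrophic cartilage, was near the floor of detection and is given in raw counts. It overlaps Nt5dc1 on the opposite strand, and the strand setting of the counting was not given in the sources used here. At P1 the libraries labelled WT held 17 counts and those labelled cKO 0, which is at least 4.65-fold lower when 3 counts over the group are taken as the floor. At P6 they held 226 and 43 counts, unevenly spread (0.594 and 0.0622 CPM in the libraries labelled cKO), and at P8 71 and 2 counts, a depth-adjusted ratio of 0.0236 (95% interval 0.0028 to 0.0883, counting error only). Of the 3, the P8 difference alone was called.

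Fibril-associated collagens sit on the surface of fibrils and bridge them to other matrix. Of the 8 measured, 2 were called higher and 0 lower at P1, 3 higher and 0 lower at P6, and 2 higher and 4 lower at P8. Over all genes 4.01%, 7.16% and 11.2% were higher and 0.892%, 6.38% and 8.37% lower, so that with 8 genes a count of 0 lower at P1 or P6 is near the background. Col9a3, a chain of the type IX collagen of cartilage, stood at 3.94 and 3.62 CPM against 14.5 and 15.3 CPM at P1, at 3.49 and 3.52 against 13.6 and 16.3 CPM at P6, and at 2.94 and 3.41 against 9.32 and 9.15 CPM at P8. It stayed between 2.94 and 3.94 CPM in the libraries labelled WT and was higher in every library labelled cKO, with log2 fold changes of 1.98 (SE 0.129), 2.10 (SE 0.13) and 1.54 (SE 0.129) and edgeR adjusted p of 1.83e-05, 3.68e-06 and 1.62e-05. Tcfl5 overlaps Col9a3 on the opposite strand.

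The other type IX chains were scarcer. Col9a1 stood at 0.0671 and 0 against 0.408 and 0.228 CPM at P1 and at 0.631 and 1.27 against 3.72 and 3.92 CPM at P6, and at 0.134 and 0.748 against 1.05 and 0.642 CPM at P8. Its log2 fold changes of 3.35 (SE 1.16), 2.0 (SE 0.793) and 0.91 (SE 0.809) had the sign of those of Col9a3, and none was called (edgeR adjusted p of 0.124, 0.101 and 0.44). Col9a2 stood at 0.402 and 0.528 against 0.544 and 0.983 CPM at P1, at 0.726 and 1.68 against 0.579 and 0.513 CPM at P6, and at 8.91 and 10.4 against 1.41 and 1.22 CPM at P8. It was lower at P8 in the libraries labelled cKO (log2 fold change -2.88, SE 0.405, edgeR adjusted p = 0.000481), where Col9a3 was higher.

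Col14a1, a fibril-associated chain of dense connective tissue, stood at 57.5 and 55.7 CPM against 37.8 and 39.9 CPM at P1, at 8.73 and 10.2 against 19.5 and 22.0 CPM at P6, and at 89.2 and 98.3 against 33.2 and 35.6 CPM at P8. Its P6 trough was shallower in the libraries labelled cKO, so that it was higher there at P6 (log2 fold change 1.13, SE 0.0986) and lower at P8 (-1.45, SE 0.097), both called by edgeR. Col22a1, known from tissue junctions such as that of muscle and tendon, fell with age under both labels, from 17.5 and 18.3 against 27.5 and 22.4 CPM at P1 through 8.85 and 7.01 against 12.8 and 13.9 CPM at P6 to 1.33 and 2.08 against 4.65 and 4.22 CPM at P8. It was higher in the libraries labelled cKO at P8 (log2 fold change 1.37, SE 0.21, edgeR adjusted p = 0.000809). The P6 call (0.75, edgeR adjusted p = 0.0194) was lost without P6 WT replicate 2 (0.126), without P6 cKO replicate 1 (0.0507) and without P6 cKO replicate 2 (0.0849).

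Col12a1 and Col16a1 completed the fibril-associated calls. Col12a1, which binds type I fibrils, was lower at P8 (log2 fold change -1.64), at 2919 and 2997 against 938 and 956 CPM. Col16a1 was higher at P1 (1.60) and lower at P8 (-0.77), at 18.8 and 20.3 against 58.7 and 59.7 CPM at P1. Col20a1 ran from 1.21 to 4.29 CPM over all libraries and was not called.

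Col7a1, the chain of the anchoring fibrils that hold epithelia to the tissue beneath, changed direction at each step. It stood at 4.34 and 4.23 CPM against 42.6 and 41.2 CPM at P1, at 40.4 and 40.6 against 7.55 and 5.18 CPM at P6, and at 18.8 and 18.5 against 58.9 and 60.3 CPM at P8. The groups never overlapped, and the log2 fold changes were 3.29 (SE 0.152), -2.67 (SE 0.148) and 1.67 (SE 0.141), with edgeR adjusted p of 1.89e-06, 1.72e-06 and 1.69e-05. It was the single collagen gene that was lower at P6 and higher at P8.

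Of the multiplexins, which sit at basement membranes, Col18a1 (the precursor of endostatin) was lower at P6 (log2 fold change -1.24) and P8 (-1.63), at 356 and 344 against 142 and 154 CPM and at 581 and 528 against 178 and 181 CPM. Col15a1 ran from 2.53 to 10.2 CPM and was not called. Col23a1, a transmembrane collagen, was called lower at P6 (-0.77) within a range of 2.92 to 6.23 CPM over all libraries. Col28a1 was at most 0.821 CPM before P8 and between 4.15 and 4.76 CPM at P8 under both labels, with no call between them.

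Across time, the libraries labelled WT gained collagen transcripts at the first step. From P1 to P6, 27 of the 35 genes were higher and 2 lower (12.2% and 10.9% of all genes tested), with a median log2 fold change of 1.66. In the libraries labelled cKO the same step gave 13 higher and 9 lower (11.0% and 10.4% of all genes), with a median of 0.25. With a fold change of at least 2 the 9 became 5 (6.56% of all genes). From P6 to P8 the counts were 14 higher and 7 lower in the libraries labelled WT (8.66% and 10.3%) and 14 and 11 in those labelled cKO (11.9% and 12.2%). In the first step Col1a2 had a log2 fold change of 4.98 in the libraries labelled WT and of 0.10 in those labelled cKO (edgeR adjusted p = 0.0502), and Col3a1 of 5.23 and -3.92. In the second step Col3a1 had 2.03 and 5.55, and Col6a3 0.55 and 3.38.

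The change of the cKO effect between time points, tested as an interaction term with an adjusted p below 0.05 and no limit on the fold, was called more negative for 18 genes and more positive for 5 from P1 to P6 (8.19% and 7.12% of all genes). From P6 to P8 it was more negative for 16 and more positive for 7 (8.83% and 12.6%), and from P1 to P8 for 22 and 3 (11.7% and 14.0%). The 3 terms share libraries with each other and with the comparisons above. Col3a1 had the largest term of the collagens from P1 to P6, with -9.15, and Col7a1 the largest positive term from P6 to P8, with 4.34, both on the log2 scale.

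Genes for the making, processing, sensing and breakdown of collagen were followed as 4 lists, of which 51 of 55 genes were in the file. At P1, 16 of the 51 were higher and 1 lower in the libraries labelled cKO, at P6 8 were higher and 14 lower, and at P8 6 were higher and 18 lower, with medians of 0.41, -0.16 and -0.24. In the order of age the higher calls were 31.4%, 15.7% and 11.8% of the 51 (4.01%, 7.16% and 11.2% of all genes tested) and the lower calls 1.96%, 27.5% and 35.3% (0.892%, 6.38% and 8.37%), so that the higher calls at P8 were near the share of all genes. With a fold change of at least 2, 0 were lower at P1 (0.401% of all genes), 8 lower at P6 (3.98%) and 2 higher at P8 (6.14%). The 21 genes of chain modification and folding in the endoplasmic reticulum had the smallest share of calls of the 4 lists at each age, with 1 call at P1 (higher), 6 at P6 (2 higher, 4 lower) and 7 at P8 (lower). The higher calls, 4.76% of the list at P1 and 9.52% at P6, were near the shares of all genes (4.01% and 7.16%). Creb3l1, a transcription factor of collagen secretion, was higher at P1 (log2 fold change 0.63) and lower at P6 (-0.74). The prolyl 3-hydroxylases split at P6, with P3h2 at 0.82 and P3h3 at -1.07. Colgalt2, which adds galactose to collagen, had the largest fall of the list at P8 (-1.27). It was scarce there, at 1.26 and 1.30 CPM (labelled WT) against 0.491 and 0.571 CPM (labelled cKO).

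Of the 12 genes of processing and crosslinking outside the cell, 6 were higher and 0 lower at P1, 4 were higher and 4 lower at P6, and 4 were higher and 3 lower at P8. In the order of age, 4.01%, 7.16% and 11.2% of all genes were higher and 0.892%, 6.38% and 8.37% lower. With 12 genes, 0 lower at P1 is near that share. Pcolce, the enhancer of procollagen C-proteinase, stood at 10.8 and 9.18 CPM against 29.0 and 27.8 CPM at P1, at 161 and 165 against 67.0 and 51.6 CPM at P6, and at 292 and 322 against 97.1 and 103 CPM at P8. Its paralogue Pcolce2 was scarce at P8, at 0.269 and 0.236 against 2.09 and 1.93 CPM. Pcolce2 went the other way from Pcolce at P6 (log2 fold change 1.91) and P8 (2.99). Likewise the N-proteinase Adamts2 was lower at P6 (-1.48) and P8 (-2.43), while its paralogue Adamts14 was higher at P1 (0.83), P6 (1.97) and P8 (0.94). Tll1, a C-proteinase, was lower at P6 by -3.07 on the log2 scale.

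Of the 8 degradation genes, 6 were higher and 0 lower at P1, 1 was higher and 4 lower at P6, and 3 were lower at P8. Over all genes 4.01%, 7.16% and 11.2% were higher and 0.892%, 6.38% and 8.37% lower, in the order of age. With 8 genes, 0 lower at P1 and 1 higher at P6 (12.5%) are near these shares. Ctsk, the collagen-cleaving cathepsin K, stood at 0.687 and 0.786 CPM against 5.47 and 6.21 CPM at P1, at 38.7 and 43.1 against 0.472 and 0.529 CPM at P6, and at 80.9 and 79.9 against 10.3 and 10.1 CPM at P8. Its log2 fold changes of 2.98, -6.35 and -2.98 had the signs of those of Col3a1. Mmp3, stromelysin 1, was higher at P6 (2.59) and lower at P8 (-1.24). Of the 10 receptors and uptake genes, 3 were higher and 1 lower at P1, 1 was higher and 2 lower at P6, and 2 were higher and 5 lower at P8. The 1 higher at P6 is 10.0% of the list, near the 7.16% of all genes. Mrc2, the receptor that takes up collagen fragments, had log2 fold changes of 2.72, -3.66 and -2.0, whereas the collagen receptors Adgrg1 (0.73, 1.26 and 0.70) and, at P8, Lair1 (0.95) were higher. Lair1, a receptor of leukocytes, was the 1 gene called lower at P1 (-0.87).

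**Figure D4:**
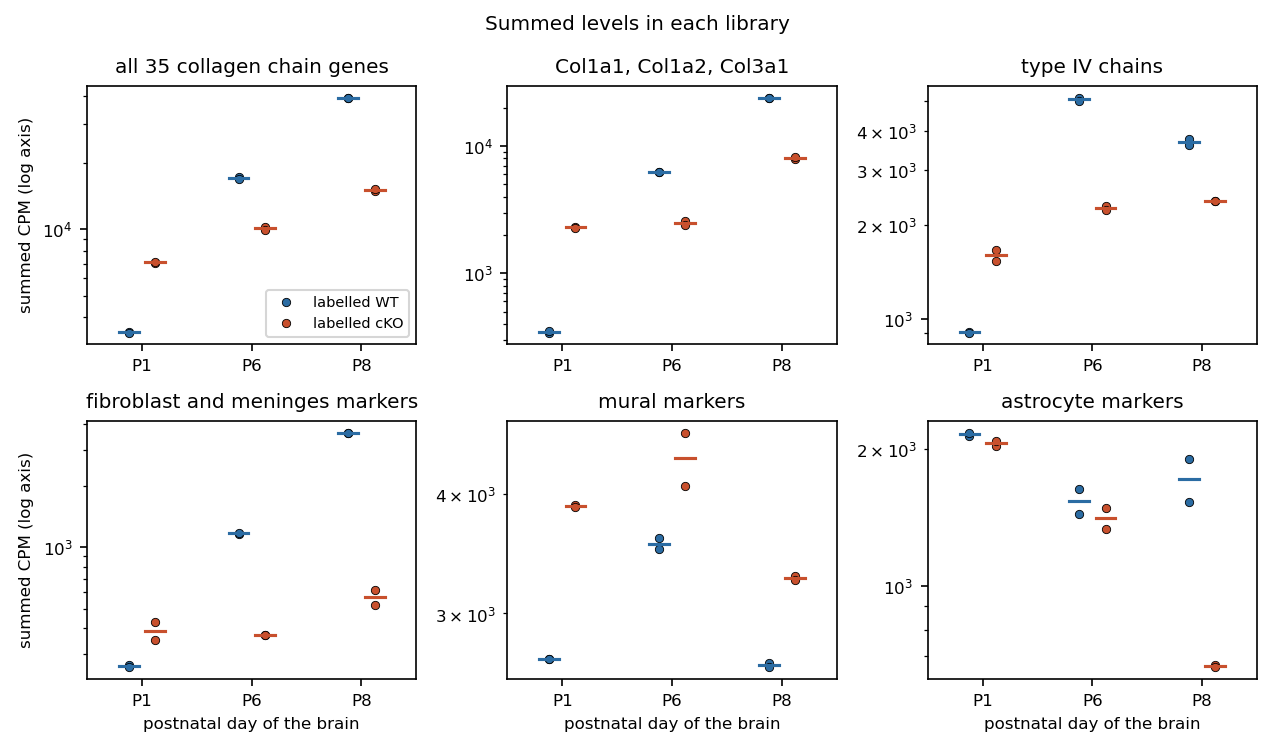
Summed CPM on a log axis in each library for the 35 collagen chain genes, for Col1a1, Col1a2 and Col3a1 alone, for the type IV chains, and for marker lists of fibroblasts and meninges, mural cells and astrocytes (blue, labelled WT; red, labelled cKO; bars, means of 2 libraries). The fibroblast and meningeal sum shows the order of the collagen sums, above in the libraries labelled cKO at P1 and below at P6 and P8. The mural sum, led by Acta2 and Tagln, is higher in the libraries labelled cKO each time. Gene by gene, 5 of the 8 mural markers were called lower and 1 higher at P6 (6.38% and 7.16% of all genes).

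Markers of other cell types were also counted, and their directions differed between lists. For each list below, the shares of all genes were 4.01%, 7.16% and 11.2% higher and 0.892%, 6.38% and 8.37% lower, in the order of age. Of 15 fibroblast and meningeal markers, none a collagen, 12 were in the file, and 8 were called higher and 0 lower at P1, 8 lower and 0 higher at P6, and 9 lower and 1 higher at P8, with medians of 1.89, -2.84 and -2.28. Their summed level ran from 258 to 264 CPM (labelled WT) and 350 to 431 CPM (labelled cKO) at P1, from 1159 to 1177 and 369 to 373 CPM at P6, and from 3614 to 3632 and 522 to 613 CPM at P8. Dcn, a proteoglycan of fibroblasts, stood at 9.12 and 8.55 against 89.6 and 89.7 CPM at P1, at 174 and 182 against 1.93 and 3.28 CPM at P6, and at 1412 and 1480 against 45.7 and 44.7 CPM at P8. Lum was listed at 0 in both P6 libraries labelled cKO. Dpt was at 0 in all libraries labelled WT and at most 0.205 CPM in those labelled cKO. The 1 higher call at P8 was that of Dpt and thus lies at the floor of detection. Slc6a13, Ranbp3l and Slc22a6 were not analysed here. Of the 3 most abundant members, Dcn and Ogn were lower at P8 (log2 fold changes -5.00 and -3.16), while Prrx1, a transcription factor of mesenchyme, had 0.13, -0.075 and -0.11 at the 3 ages and no call. The part of this list in the collagen differences was not tested.

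Of the 10 endothelial markers 5 were in the file, with 3 higher and 0 lower at P1, 4 lower and 0 higher at P6, and 2 lower and 1 higher at P8, and their sum ran from 23.9 to 162 CPM over all libraries. Cdh5, the cadherin of endothelial junctions, stood at 1.54 and 1.72 against 13.5 and 13.6 CPM at P1, at 55.8 and 57.0 against 1.11 and 0.607 CPM at P6, and at 125 and 141 against 10.1 and 9.59 CPM at P8. Flt1, a receptor for vascular endothelial growth factor, was higher at P1 (log2 fold change 1.5) and P8 (1.92), and Kdr, another, was lower at P6 (-0.90). Of the 8 mural markers, 1 was higher at P1, 1 was higher and 5 lower at P6, and 2 were higher and 1 lower at P8. The single calls higher at P6 and lower at P8 (12.5% of the list each) were near the shares of all genes (7.16% and 8.37%). Their sum was led by the smooth muscle genes Acta2 and Tagln and was higher in the libraries labelled cKO each time, and Pdgfrb, the receptor of pericytes, had log2 fold changes of 0.60, -0.59 and -0.45. Of the 9 astrocyte markers, 1 was higher at P1, 1 was lower at P6 and 5 were lower at P8, where their sum was 1531 and 1895 CPM (labelled WT) against 668 and 661 CPM (labelled cKO). The most abundant of them by the mean over all 12 libraries, though not at P8 alone, were Aqp4, Gfap and Slc1a3. These had log2 fold changes of -2.01, -1.07 and -0.44 at P8. Aldh1l1 went the other way there, at 52.4 and 51.3 CPM (labelled WT) against 73.3 and 72.1 CPM (labelled cKO), short of a call.

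The remaining lists were counted in the same way. Shares of all genes, in the order of age, were 4.01%, 7.16% and 11.2% higher and 0.892%, 6.38% and 8.37% lower. In lists this short, a count of 1 or 0 is too small to set apart from these shares. Of 7 microglial markers, 2 were lower at P1, 1 was lower at P6, and 4 were higher and 1 lower at P8, where C1qa (log2 fold change 1.26) was higher and Csf1r (0.58) missed the fold required. Of 6 oligodendrocyte lineage markers, 0 were called at P1, 2 were lower at P6, and 1 was higher and 2 lower at P8. The most abundant were Olig1, called lower at P6 (-0.66), Mbp, called higher at P8 (0.87), and Olig2, not called. Of 4 choroid plexus and ependymal markers, 2 were higher at P1, 2 higher and 2 lower at P6, and 2 higher and 1 lower at P8, and among them Aqp1 had log2 fold changes of 1.05, -4.35 and -3.29 and Folr1 of 1.6, 1.74 and 1.87, while Foxj1 was called higher at P6 (0.68) and P8 (0.72). Both neuronal markers in the file were higher at P6 and P8 (Stmn2 by 1.11 and 1.61, Syt1 by 1.83 and 0.68), and Syt1 also at P1 (2.29). The part of these cell types in the collagen differences was not tested.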

How the data were processed

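The authors deposited whole-number read counts per gene for 12 libraries of cultured mouse astrocytes, made, per the labels and the study's methods, by aligning reads with HISAT2 to mm10 (GRCm38). The counting program, annotation and strand setting were not given in the sources used here, and nothing was normalised before deposit.

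Genes with low counts were removed with edgeR's filterByExpr, and 1 quasi-likelihood model (edgeR 4.0.16 in R 4.3.3, limma 3.58.1) with TMM factors was fitted to the 17938 genes that passed, with 1 mean for each of the 6 groups. Contrasts compared labels within a time point, time points within a label, and label effects between time points. A call needed a Benjamini-Hochberg adjusted p below 0.05 and, except for the last kind, a fold change of at least 1.5. The common biological coefficient of variation was 0.178. With 2 libraries a group an exact permutation test cannot go below p = 0.333 (two-sided). The fit was tested on simulated data first.

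Values were printed in every library for the 6 genes with the highest CPM per kilobase, the 4 largest calls each way at a time point, the 2 largest interaction terms each way and the partner chains of these, with a mean of at least 1 CPM for the calls. In each pathway list the largest call each way was named, and a few further genes were named after their values were seen. The value of 1 abundant marker gene is not reported here. The members and lists were chosen with earlier results of these data known. Alternatives were DESeq2 1.42.0 and its size factors, no filter, the replicate number as a block, the compared groups alone, other thresholds and each library left out. Same-numbered libraries did not deviate together (correlations across genes of -0.03, -0.00553 and -0.0627), so the numbers were not taken as pairs. Replicates differed by more than counting noise (chi-square per degree of freedom 30.47 to 47.07). Positions are those of GENCODE vM21 (GRCm38) and upstream sequences those of RefSeq (GRCm38.p6). Genes that overlap another gene may share its reads, and 14 of the 35 collagen genes overlap none.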

Additional observations from a re-analysis of the deposited data

Results flagged for a closer look

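The effect of the label differed between time points by a test of the difference itself, an interaction term in the edgeR model across all genes. All values are differences of log2 fold changes, libraries labelled cKO over libraries labelled WT, at the later less the earlier time point.

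From P1 to P6 the effect became more negative for 18 collagen chain genes and more positive for 5 (8.19% and 7.12% of all genes). Col3a1, the type III chain, had a term of -9.15 (SE 0.0953, edgeR adjusted p = 6.91e-11), and Col6a3, the type VI chain on chromosome 1, of -7.67 (SE 0.141, edgeR adjusted p = 2.64e-09). In the other direction stood Col4a3 with 2.60 (SE 0.199, edgeR adjusted p = 2.53e-05) and Col14a1 with 1.68 (SE 0.137, edgeR adjusted p = 4.03e-05).

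From P6 to P8 it became more negative for 16 genes and more positive for 7 (8.83% and 12.6% of all genes). Col8a2 had a term of -3.03 (SE 0.242, edgeR adjusted p = 2.74e-05) and Col14a1 of -2.58 (SE 0.138, edgeR adjusted p = 2.54e-06), so that Col14a1 had moved up in one interval and down in the next. Col7a1 had 4.34 (SE 0.204, edgeR adjusted p = 1.12e-06) and Col3a1 3.52 (SE 0.0846, edgeR adjusted p = 3.88e-08).

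From P1 to P8 it became more negative for 22 genes and more positive for 3 (11.7% and 14.0% of all genes). The 3 are 8.57% of the collagen genes, below the share of all genes. The terms were -5.63 for Col3a1 (SE 0.0877, edgeR adjusted p = 1.71e-09), -5.13 for Col1a2 (SE 0.0502, edgeR adjusted p = 7.88e-11), 1.83 for Col4a3 (SE 0.223, edgeR adjusted p = 0.000271) and 0.89 for Col22a1 (SE 0.282, edgeR adjusted p = 0.0458). The Col22a1 term was lost in 11 alternatives, with adjusted p between 0.0512 and 0.134, among them the 8 that left out 1 of these libraries: P1 WT replicate 1 or 2, P1 cKO replicate 2, P6 cKO replicate 1 or 2, P8 WT replicate 1, and P8 cKO replicate 1 or 2. The 3 intervals share libraries, so their terms are not independent.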

How the results depend on the processing

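Of 26 counts of calls recomputed under each alternative, 20 stayed within 1.5 times their value, and no named gene changed direction. Collagen genes lower at P1 went from 0 to 1 with DESeq2 on all libraries and to 1 at an unadjusted p. A fold change of at least 2 lowered the collagen genes higher at P6 from 10 to 6, those lower at P6 than at P1 in libraries labelled cKO from 9 to 5, the pathway genes lower at P6 from 14 to 8 and those higher at P8 from 6 to 2. Pathway genes lower at P1 went from 1 to 2 with the compared groups alone, to 0 at a fold of 2 and to 2 at an unadjusted p. Leaving out 1 library moved no count by over 1.5 times (13 to 14 higher at P1, 13 to 16 lower at P6, 17 to 19 lower at P8). Of 163 calls of 22 named genes, 13 were lost only at a fold of 2 and 11 in another alternative. With the replicate number as a block the counts at P1, P6 and P8 were those reported (13 higher, 15 lower and 19 lower), and the single named call lost was the P1 to P8 term of Col22a1 (edgeR adjusted p = 0.0662). The genes of lowest level (Col9a1, Col9a2, Col10a1 and Col28a1) had the widest standard errors of the 35 between labels (0.405 to 2.22), so that their differences are the least precise at this depth.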
